A study of Homo sapiens with 30 samples.

Results

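The 3 libraries of 22Rv1 cells after 2 h with KI-ARv-03 were compared with the 3 libraries taken at the start, 6 of the 30 libraries of a SLAM-seq time course. They were chosen by their titles, and 1 transcript stood for each gene, that with the highest summed level, which gave 22383 genes, of which 17184 had a read and 11425 were tested. 22Rv1 is an established prostate cancer line that grows without androgen, and the series describes KI-ARv-03 as a selective inhibitor of CDK9. In SLAM-seq, 4-thiouridine (s4U) enters new transcripts, which are then read with T-to-C conversions. A 30 min pulse of 800 µM s4U came first in every group, and the cells of 0 h were harvested at its end. The others then received fresh medium with 800 µM s4U and either DMSO as the vehicle or 4 µM KI-ARv-03, and were collected at 2 h. The comparison with 0 h therefore spans time, new medium, vehicle, longer s4U and the compound, which cannot be told apart in it, and the 3 libraries with DMSO at 2 h are given beside it. A direct test of KI-ARv-03 against DMSO at 2 h is the comparison in which only the compound differs. The compound was read from the sample titles, because the treatment notes name DMSO throughout, and nothing in the labels says that replicates were separate cultures, so p-values may measure technical spread only.

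The P-TEFb complex, whose kinase is CDK9, frees paused RNA polymerase II for productive elongation. When transcription is held back, an RNA falls at the pace of its own decay, so messages with short half-lives are known to go first: immediate early genes, feedback inhibitors of signalling, ID and MYC family regulators and the apoptosis inhibitor MCL1. Conversion reports on synthesis from the other side, because it grows only as labelled RNA replaces older RNA.

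The promoters of 4 genes on which the results turn are shown as the 250 bases before the start in RefSeq (GRCh38.p14). RGS2 had the largest fall, NFKBIA and ID1 are fallers whose promoters hold a TATA motif, and KLF6 fell against both 0 h and DMSO. Capitals mark matches, on either strand, to TATAAA, to the CCAAT box (CCAAT), to the GC box (GGGCGG) or to the E-box CACGTG.
RGS2, chr1:192808789-192809038, plus strand: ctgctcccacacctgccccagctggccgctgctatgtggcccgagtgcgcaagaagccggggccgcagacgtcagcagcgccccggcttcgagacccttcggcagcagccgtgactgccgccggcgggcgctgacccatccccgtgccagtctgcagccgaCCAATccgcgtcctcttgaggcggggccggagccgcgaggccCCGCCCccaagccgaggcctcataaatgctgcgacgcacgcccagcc
NFKBIA, chr14:35404750-35404999, minus strand: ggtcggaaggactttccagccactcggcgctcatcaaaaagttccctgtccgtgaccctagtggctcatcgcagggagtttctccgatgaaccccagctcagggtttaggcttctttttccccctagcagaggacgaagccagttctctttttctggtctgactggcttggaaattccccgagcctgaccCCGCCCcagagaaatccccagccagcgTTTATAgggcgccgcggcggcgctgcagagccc
ID1, chr20:31605039-31605288, plus strand: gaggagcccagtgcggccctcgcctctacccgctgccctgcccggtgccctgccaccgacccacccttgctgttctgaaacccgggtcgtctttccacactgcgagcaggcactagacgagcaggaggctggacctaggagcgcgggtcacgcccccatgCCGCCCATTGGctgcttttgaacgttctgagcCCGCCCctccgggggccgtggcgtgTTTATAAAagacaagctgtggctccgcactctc
KLF6, chr10:3785210-3785459, minus strand: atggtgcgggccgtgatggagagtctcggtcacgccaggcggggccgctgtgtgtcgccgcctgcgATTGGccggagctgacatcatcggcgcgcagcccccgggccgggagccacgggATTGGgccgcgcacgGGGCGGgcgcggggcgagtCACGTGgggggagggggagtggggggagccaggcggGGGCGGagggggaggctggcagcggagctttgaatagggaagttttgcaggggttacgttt
The 2 TATA matches of ID1 overlap, 1 on each strand, and lie 33 and 31 bases before the start. The TATA match of NFKBIA lies 33 bases before it. Over the genes called lower with KI-ARv-03 than at 0 h, 261 of 329 had a promoter in the table, and 8.43% of these held TATAAA, beside 4.83% of the 9323 promoters of all genes tested. CCAAT was in 44.4% beside 36.0%, the GC box in 65.5% beside 68.9% and the E-box in 9.20% beside 9.40%. TGACGTCA, the cyclic AMP response element, was in 4.21% beside 2.94%, and TGANTCA, the AP-1 site, in 4.21% beside 3.28%. The CArG box of serum response genes was in 0.383% beside 0.987%. Of the 55 genes called higher, 44 had a promoter, and TATAAA was in 13.6% of these (6), TGACGTCA in 6.82% and TGANTCA in 9.09%. CCAAT was in 34.1% of them, the GC box in 68.2%, the E-box in 6.82% and the CArG box in 0. Among the 20 genes named for the largest falls, 14 had a promoter, and 1 of these held TATAAA. These shares describe letters in a window and were not tested.

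The 6 libraries held 2425605 to 3745194 reads on the genes kept and detected 12180 to 14361 genes. All 8 luminal prostate markers had reads, and of 17 markers of basal, neuroendocrine, stromal, endothelial and immune cells 10 were at 0 in all 6 libraries, among them KRT5, KRT14, TP63 and PTPRC. The 17 summed to 33.9 to 46.0 CPM at 0 h and to 99.3 to 169 with KI-ARv-03, and SYP, a synaptic vesicle protein used as a neuroendocrine marker, was the 1 of the 3 tested that was called. The part of such cells in the results was not tested. In bulk RNA, fewer cells of a type and less RNA per cell cannot be told apart. Replicate 3 at 0 h stood apart from the other libraries at 0 h, with a root mean square deviation from the group mean of 0.66 on the log2 scale beside 0.35 and 0.40, so counts are also given without it.

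Levels are deposited CPM values rescaled between libraries, and differences are fitted values of log2(CPM + 1) ± SE, which understate the change of low genes. A gene was called where limma's Benjamini-Hochberg adjusted p over all 11425 genes tested was under 0.05. After 2 h with KI-ARv-03, 329 genes (2.88%) were lower than at 0 h and 55 (0.481%) were higher, together 3.36%. The 329 were all down at least 2-fold on that scale, with a median difference of -1.97. In 328 of them the 3 libraries of each group did not overlap, beside 16.4% of all genes tested that did not overlap in that direction. Their median level went from 23.6 to 4.85 CPM, while the median difference of all genes was -0.03. The rescaling takes most genes as unchanged, so the median of all genes cannot show whether total mRNA fell. Without 0 h replicate 3 the count was 183 lower and 8 higher, and 157 of these 183 were among the 329. Leaving out KI-ARv-03 replicate 2 gave 101 lower and 2 higher, and leaving out replicate 3 gave 131 and 4. Without 0 h replicates 1 and 2 there were 205 and 180 lower and 33 and 23 higher. Over the other settings the number lower ran from 97, with a smaller pseudocount, to 794, with the deposited scaling. With DMSO over the same 2 h, 302 genes were lower and 10 higher than at 0 h, and that comparison shares its 0 h libraries with this one.

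**Figure D1:**
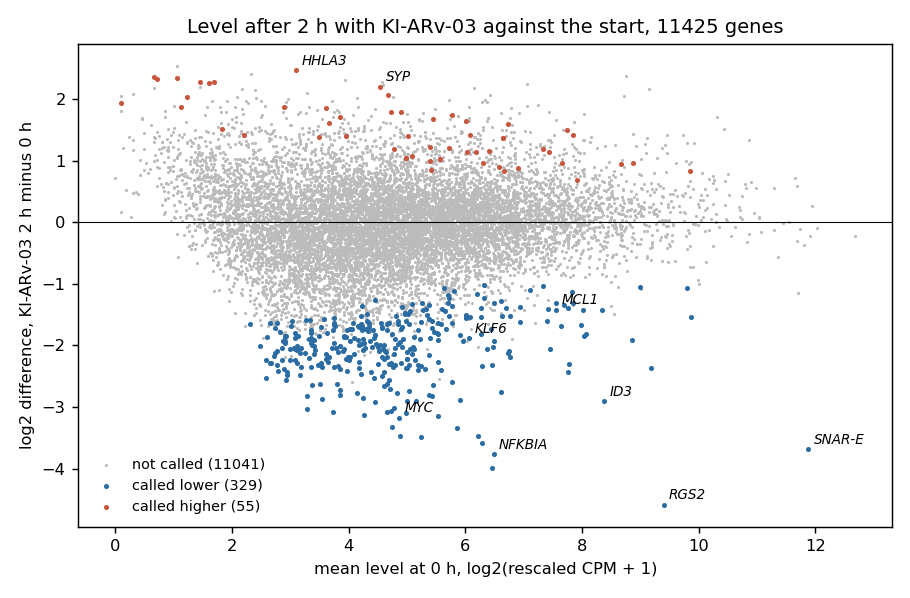
Each point is 1 of 11425 genes, with its mean level at 0 h on the x axis, as log2(rescaled CPM + 1), and the log2 difference of KI-ARv-03 at 2 h minus 0 h on the y axis. The 329 genes called lower lie below -1.0, RGS2 furthest at -4.59, and the 55 called higher reach 2.47 with HHLA3.

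RGS2, a brake on G-protein signalling, had the largest fall of any gene tested. It stood at 635, 667 and 724 CPM in the 3 libraries at 0 h and at 35.2, 20.3 and 27.7 with KI-ARv-03, a log2 difference of -4.59 ± 0.31 (limma, adjusted p = 1.61e-10). With DMSO it was at 32.4, 29.03 and 14.9, so both 2 h groups lay far below 0 h and overlapped each other. ID3, one of the ID proteins that block DNA binding by helix-loop-helix factors, went from 309, 319 and 365 to 39.3, 40.6 and 50.4 CPM (-2.91 ± 0.39, limma adjusted p = 8.66e-05), with 28.4, 50.7 and 37.7 in DMSO. With DMSO the differences of RGS2 and ID3 from 0 h were -4.75 and -3.09, and in both genes the libraries of the 2 h groups overlapped.

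NFKBIA, the inhibitor that holds NF-kB in the cytoplasm, was at 80.6, 91.7 and 93.7 CPM at 0 h, at 7.54, 3.69 and 6.06 with KI-ARv-03 and at 9.10, 11.6 and 19.6 with DMSO. Its difference from 0 h was -3.77 ± 0.51 with the compound (limma adjusted p = 8.66e-05) and -2.70 with DMSO. All 3 libraries with KI-ARv-03 lay below all 3 with DMSO, but the difference between them did not pass (-1.07 ± 0.51, limma adjusted p = 0.998). MYC, the growth-promoting transcription factor, was at 32.2, 39.2 and 13.0, 2.29, 1.11 and 2.65 and 1.82, 10.1 and 7.44 CPM in the same order of groups, -3.18 ± 0.59 against 0 h (limma adjusted p = 0.00263) and -2.05 with DMSO (adjusted p = 0.0597). SNAR-E, a small non-coding RNA of a family of near-identical copies whose counts are therefore uncertain, was the most abundant faller, at 4464, 3604 and 3243 CPM at 0 h, 331, 245 and 298 with KI-ARv-03 and 1794, 1130.1 and 888 with DMSO (-3.69 ± 0.64, limma adjusted p = 0.00128). Its 3 groups did not overlap, with DMSO in between, and the difference of the compound from DMSO was -2.07 and did not pass (adjusted p = 0.960). The share of all genes whose libraries lie below DMSO as in NFKBIA and SNAR-E was not counted.

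Among the genes named for the largest falls from at least 20 CPM, 14 more fell by 2.90 to 3.58 on the log2 scale. Stimulus-induced and signalling genes among them were IER5 (-3.47 with KI-ARv-03 and -2.55 with DMSO) and its relative IER5L (-3.35 and -3.50), the pseudokinase TRIB1 (-3.49 and -3.08), the ephrin ligand EFNA1 (-3.14 and -3.21) and the death receptor adaptor FADD (-3.10 and -2.28). The hypoxia-inducible lipid droplet protein HILPDA stood at -3.58 and -2.30. CITED2, a co-regulator that binds CBP and p300, stood at -3.48 and -2.81, and PHF13, a chromatin reader, at -3.33 and -2.79. Others act in RNA processing: PCF11, a cleavage and termination factor for transcripts of RNA polymerase II, went from 28.9, 35.2 and 39.7 to 4.57, 2.21 and 4.93 CPM and was at 4.73, 3.10 and 2.66 with DMSO. INTS5, a subunit of the Integrator complex, went from 22.5, 20.1 and 33.7 to 1.83, 1.84 and 2.65 and was at 16.8, 8.90 and 2.12 with DMSO, where replicate 1 was close to the start and replicate 3 close to the compound. The helicase DDX28, the splicing factor BUD13, the tubulin cofactor TBCC and the zinc finger gene ZNF92 stood at -3.07, -2.93, -2.90 and -3.02 with KI-ARv-03 and -2.84, -2.55, -1.43 and -2.06 with DMSO. BUD13 lost its call without 0 h replicate 3 (limma adjusted p = 0.0607), where that library held 43.1 CPM against 9.12 and 10.6, and TBCC without KI-ARv-03 replicate 2 (adjusted p = 0.0604). The other 17 of the 19 falls described stayed called in each of the 18 alternatives run.

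**Figure D2:**
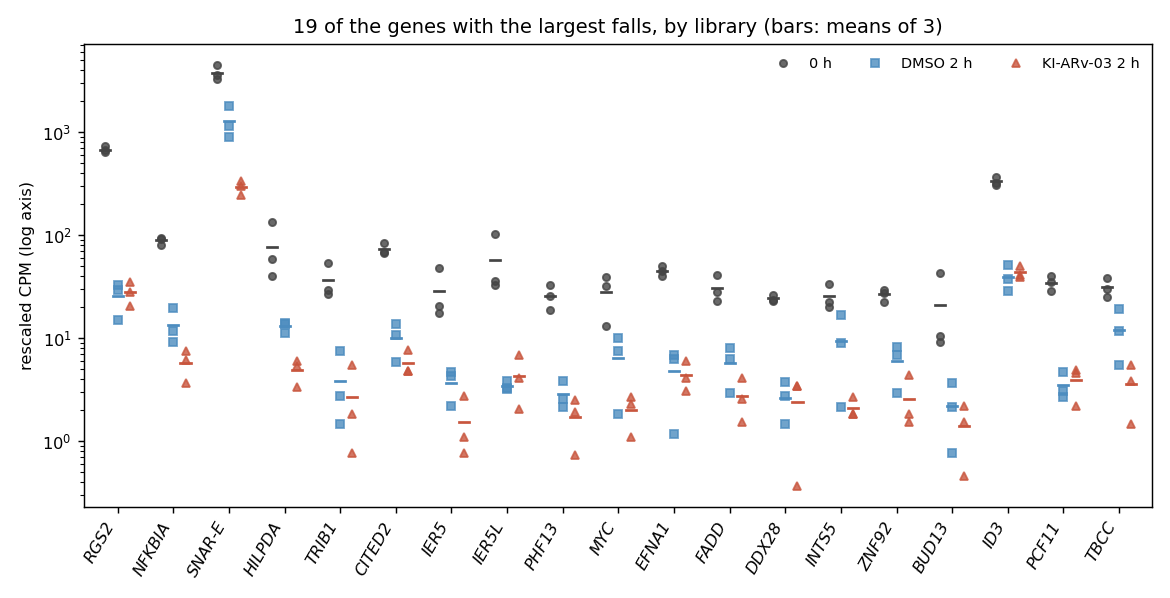
Levels in rescaled CPM (log axis) of 19 of the genes with the largest falls, 1 point per library with bars at the means of 3, for 0 h, DMSO at 2 h and KI-ARv-03 at 2 h. Points of KI-ARv-03 lie below those of 0 h in each gene, and RGS2 and ID3 overlap between the 2 h groups. SNAR-E and NFKBIA are lower with the compound than with DMSO in all 3 libraries, differences that did not pass.

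What differed between the compound and its vehicle? In the direct test of KI-ARv-03 against DMSO at 2 h, 3 genes (0.0263%) were lower and 0 higher in limma, with 172 in each direction at an unadjusted p under 0.05 and 7 called by DESeq2. KLF6, an immediate early zinc finger factor, is the 1 of the 329 fallers among the 3. It was at 80.6, 63.0 and 54.2 CPM at 0 h, 12.3, 22.9 and 17.1 with KI-ARv-03 and 59.0, 74.3 and 100.4 with DMSO. Its difference from 0 h with vehicle did not pass (0.22, limma adjusted p = 0.836), and it fell with the compound against 0 h (-1.88 ± 0.35, adjusted p = 0.00290) and against DMSO (-2.11 ± 0.35, adjusted p = 0.00956). METTL18, a histidine methyltransferase, was at 8.82, 10.4 and 5.19 CPM at 0 h, 3.20, 2.58 and 1.90 with KI-ARv-03 and 13.5, 22.1 and 19.1 with DMSO, in 3 groups that did not overlap. Its difference from DMSO was -2.42 ± 0.39 (limma adjusted p = 0.00956), and against 0 h its -1.33 ± 0.39 did not pass (adjusted p = 0.0576). FGF18, a fibroblast growth factor, was at 6.19, 11.2 and 6.37 CPM with DMSO and at most 0.369 in any library at 0 h or with KI-ARv-03. Its difference from DMSO was -2.86 ± 0.47 (limma adjusted p = 0.00956), a value that depends on the pseudocount since the compound's libraries held at most 1 read each.

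With only the KI-ARv-03 and DMSO libraries fitted, 0 genes were called. All 3 of these calls ended when KI-ARv-03 replicate 1 or 3, or DMSO replicate 2 or 3, was left out, with adjusted p from 0.0560 (METTL18 without KI-ARv-03 replicate 1) to 0.202 (KLF6 without DMSO replicate 3). JUN, DNAJB1 and MIDN also lay below DMSO in all 3 libraries, though the difference did not pass. How many of all genes tested lie below DMSO in this way was not counted, while against 0 h it was 16.4%. JUN, like FOS, JUNB, IER2 and SOX4 further on, was chosen after its values were seen. JUN, the partner of FOS in AP-1, was at 28.6, 42.3 and 27.8 CPM at 0 h, 10.3, 4.80 and 5.69 with KI-ARv-03 and 28.4, 34.1 and 30.3 with DMSO. Its difference was -2.13 ± 0.45 from 0 h (limma adjusted p = 0.00717, and 0.0668 without KI-ARv-03 replicate 2) and -2.07 ± 0.45 from DMSO (adjusted p = 0.139). DNAJB1, which stimulates HSP70 chaperones, was at 74.5, 69.5 and 101, 26.3, 14.0 and 17.4 and 48.1, 46.4 and 52.0 CPM in the same order, -2.06 ± 0.37 against 0 h (limma adjusted p = 0.00192) and -1.34 ± 0.37 against DMSO (adjusted p = 0.774). The 3 groups of DNAJB1 did not overlap, with DMSO in between. MIDN, midnolin, which takes nuclear proteins to the proteasome, was at 193, 171 and 281, 45.9, 30.3 and 39.8 and 84.1, 79.7 and 79.7 CPM, -2.43 ± 0.33 against 0 h (limma adjusted p = 8.66e-05) and -1.07 ± 0.33 against DMSO (adjusted p = 0.960).

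Immediate early genes, which growth signals switch on within minutes and whose messages are short-lived, held the largest share of fallers among the gene lists. Of 18 tested, 9 were called lower and 0 higher, beside 2.88% of all genes tested, with a median of -1.56 for KI-ARv-03 and -0.85 for DMSO, beside -0.03 and -0.01 over all genes. Besides MYC, IER5, KLF6 and JUN these were IER2 (19.2, 18.7 and 40.0 CPM at 0 h to 2.97, 3.69 and 5.69 with the compound), JUNB (14.0, 16.1 and 20.2 to 1.83, 1.11 and 1.90), FOS (5.47, 7.12 and 6.23 to 1.60, 0 and 0.379), ZFP36L1 and CCN2. JUNB and IER2 were also low with DMSO, at 1.46, 0.387 and 1.06 and 4.01, 6.97 and 6.90 CPM, unlike JUN. Some calls ended when 1 library was left out, here with the highest limma adjusted p: FOS without KI-ARv-03 replicates 2 or 3 or 0 h replicates 2 or 3 (up to 0.127), and ZFP36L1 without KI-ARv-03 replicate 2 or 0 h replicate 3 (up to 0.0674). JUNB lost its call with a pseudocount of 0.25 (limma adjusted p = 0.0994). Without 0 h replicate 3, 8 of the 18 were called lower. Over the same 2 h with DMSO, 4 of the 18 were called lower, beside 302 of all 11425 genes.

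ID proteins and feedback genes of BMP and TGF-beta signalling followed, with 4 of 12 called lower and 0 higher, beside 2.88% lower over all genes tested. Their median was -1.08 (DMSO -0.89). Over the same 2 h with DMSO, 3 of the 12 were called lower, beside 302 of all 11425 genes. ID1 went from 106, 93.1 and 124 to 18.5, 29.5 and 21.2 CPM (-2.19 ± 0.34, limma adjusted p = 4.60e-04) and ID2 from 246, 228 and 308 to 96.0, 55.0 and 68.6 (-1.84 ± 0.37, adjusted p = 0.00455), and the fourth, after ID3, was the SMAD co-repressor SKIL. ID1, ID2 and ID3 stayed called in all 18 alternatives. Signalling brakes (RGS, DUSP, Sprouty and SOCS genes) had 4 of 15 called lower and 0 higher, namely RGS2, the phosphatase DUSP4 and the receptor signalling inhibitors SPRY1 (4.56, 5.90 and 9.08 to 1.14, 0.738 and 0.758 CPM) and SPRY2 (21.0, 21.4 and 9.08 to 1.83, 3.32 and 2.65). Their median was -0.68 with KI-ARv-03 and -0.92 with DMSO, and 2 of the 15 were called without 0 h replicate 3. Of these 15, 1 was called lower with DMSO. Of 10 Notch, Wnt and Hippo feedback genes 2 were lower and 0 higher, both of Notch: the repressor HES1 (-1.98 ± 0.50) and NRARP (-2.16 ± 0.50), an inhibitor of the Notch complex. The median of the 10 was -0.91 with KI-ARv-03 and -0.65 with DMSO, and 3 of them were called lower with DMSO. Calls also ended for SPRY1 without KI-ARv-03 replicates 2 or 3 or 0 h replicate 3 (up to 0.0678), for SPRY2 without KI-ARv-03 replicates 1 or 3 or 0 h replicates 1 or 2 (up to 0.0707), for HES1 without KI-ARv-03 replicates 1 or 2 or 0 h replicates 1 or 2 (up to 0.115), and for NRARP without KI-ARv-03 replicates 2 or 3 or 0 h replicate 3 (up to 0.0741), with limma's highest adjusted p in brackets.

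Transcription factors of the luminal prostate lineage had 4 of 16 called lower and 0 higher, beside 2.88% lower over all genes tested. Their median was -0.77 with KI-ARv-03 and -0.87 with DMSO. Over the same 2 h with DMSO, 5 of the 16 were called lower, beside 302 of all 11425 genes. TBX3, a T-box repressor, went from 244, 236 and 328 to 85.7, 73.1 and 66.7 CPM (-1.82 ± 0.24, limma adjusted p = 8.66e-05) and GATA3, a zinc finger factor of luminal cells, from 111, 131 and 80.4 to 42.7, 31.4 and 35.6 (-1.51 ± 0.27, adjusted p = 0.00192). SOX9 went from 31.6, 27.0 and 48.0 to 9.37, 6.27 and 3.79 CPM, and FOXA1, a pioneer factor that opens chromatin, from 210.4, 261 and 178 to 83.6, 67.9 and 92.5. SOX9 lost its call without KI-ARv-03 replicate 3 (limma adjusted p = 0.0749) and without 0 h replicate 3 (0.0555), and FOXA1 without KI-ARv-03 replicates 1, 2 or 3 or 0 h replicates 1 or 2 (up to 0.144). Of 19 androgen-responsive genes 0 were called in either direction, with a median of -0.26 (DMSO -0.21, with 1 called lower).

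Genes that p53 activates had 5 of 21 called lower and 0 higher, beside 2.88% lower over all genes tested. Their median was -0.85 (DMSO -0.61), and 3 of the 21 were called lower with DMSO, beside 302 of all 11425 genes. The 5 were the nuclease AEN (52.0, 47.0 and 78.6 to 11.2, 4.43 and 6.44 CPM), the BH3-only protein BBC3 (74.5, 85.2 and 107 to 29.3, 22.5 and 17.1), BTG2, SESN2 and GADD45A. Of 17 genes of the BCL2 family and XIAP, 2 were lower and 0 higher, the pro-apoptotic BBC3 and the anti-apoptotic MCL1. Their median was -0.23 with KI-ARv-03 and -0.18 with DMSO, and 4 of the 17 were called lower with DMSO. MCL1 was at 158, 160.5 and 243 CPM at 0 h, 92.3, 45.0 and 74.7 with KI-ARv-03 and 77.2, 57.7 and 36.1 with DMSO (-1.42 ± 0.40, limma adjusted p = 0.0466). It lay near the threshold, and leaving out any 1 library but KI-ARv-03 replicate 1 ended the call, with 0.283 as the highest adjusted p (without KI-ARv-03 replicate 2). Among the p53-activated genes, calls ended for BBC3 without KI-ARv-03 replicate 3 (0.0546) and for SESN2 without KI-ARv-03 replicate 2 (0.0977), limma adjusted p in brackets. BTG2 lost its call with a pseudocount of 0.25 (limma adjusted p = 0.0833).

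Of 33 genes of P-TEFb, its inhibitors and RNA polymerase II elongation, 3 were lower and 0 higher, beside 2.88% lower over all genes tested. Their median was -0.30 with KI-ARv-03 and -0.40 with DMSO, and 2 of the 33 were called lower with DMSO, beside 302 of all 11425 genes. The 3 were HEXIM1 (43.2, 48.2 and 61.2 to 26.7, 17.7 and 21.6 CPM) and HEXIM2, which hold P-TEFb inactive, and the elongation factor ELL (8.21, 7.32 and 11.4 to 2.29, 0.369 and 1.14). HEXIM1 was at 22.2, 24.8 and 21.8 CPM with DMSO, and its call (limma adjusted p = 0.0487) ended with any 1 of the 6 libraries left out, up to 0.243 without KI-ARv-03 replicate 2. CDK9 was a low message, at 3.95, 6.91 and 4.15 CPM at 0 h, 2.74, 0.738 and 2.27 with KI-ARv-03 and 4.73, 3.48 and 9.56 with DMSO, and did not pass (-1.08 ± 0.40, adjusted p = 0.134). Genes of deadenylation and mRNA decay had 3 of 23 lower and 0 higher, the anti-proliferative adaptors BTG1, BTG2 and TOB1. The median of the 23 was -0.29 with KI-ARv-03 and -0.23 with DMSO, and 1 was called lower with DMSO. The list of CLK kinases and L-type cyclins also holds the kinase DYRK1A, which is neither. DYRK1A was the 1 of its 9 tested members called lower (53.5, 52.1 and 49.3 to 20.6, 17.3 and 14.4 CPM). The median of the 9 was -0.56 with KI-ARv-03 and -1.16 with DMSO, beside 4 called lower with DMSO. SRSF5 was the 1 of 16 SR splicing factor genes called lower, at 154, 168 and 159 CPM at 0 h and 76.8, 78.2 and 76.9 with the compound. Of the 16, 0 were called lower with DMSO. TEF, a clock-output factor, was the 1 of 9 circadian genes (-3.07 ± 0.51, limma adjusted p = 8.93e-04), and its call held in every leave-out. Of these 9 circadian genes, 3 were called lower with DMSO. Calls ended for HEXIM2 without KI-ARv-03 replicates 1 or 2 or 0 h replicates 1, 2 or 3 (up to 0.295), for ELL without KI-ARv-03 replicate 2 (0.0678), for BTG1 without KI-ARv-03 replicates 2 or 3 (up to 0.152), and for TOB1 without KI-ARv-03 replicates 1, 2 or 3 or 0 h replicates 1 or 2 (up to 0.169), with limma's highest adjusted p in brackets. They ended too for DYRK1A without KI-ARv-03 replicates 2 or 3 or 0 h replicates 1, 2 or 3 (up to 0.104), and for SRSF5 without any 1 of the 6 (up to 0.103).

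In the stress lists, beside 2.88% called lower over all genes, DNAJB1 was the 1 of 18 heat shock genes called, and DDIT3, DDIT4 and SESN2 were the 3 of 17 genes of the integrated stress and unfolded protein responses. All 4 were lower. Over the same 2 h with DMSO, 0 of the 18 and 4 of the 17 were called lower, beside 302 of all 11425 genes. DDIT3, the factor CHOP, went from 26.5, 26.4 and 27.2 to 10.3, 4.80 and 5.31 CPM. Of 20 sterol and lipid synthesis genes 1 was lower and 0 higher, and NFKBIA was the 1 of 6 NF-kB-activated genes. In these lists 3 of the 20 and 1 of the 6 were called lower with DMSO. KCNQ1OT1, an imprinted antisense transcript, was the 1 of 12 long non-coding RNA genes (194, 198 and 116 to 70.6, 62.7 and 52.3 CPM). The S phase list had 2 of 22 lower, cyclin E1 (CCNE1, 10.0, 9.56 and 14.3 to 2.51, 0.738 and 1.90 CPM) and the licensing factor CDC6, while 0 of 24 G2 and mitosis genes and 0 of 17 DNA repair genes were called. CCNE1 lost its call with a pseudocount of 0.25 (limma adjusted p = 0.104). Of 11 genes of MYC, MAX and partners, MYC and its antagonist MNT were lower. DMSO gave 0 of these 11 and 2 of the 22 S phase genes lower. Among the 12 long non-coding RNA genes it gave 1 lower and 1 higher. Calls ended for DDIT3 without KI-ARv-03 replicates 2 or 3 or 0 h replicates 1, 2 or 3 (up to 0.154), for DDIT4 without KI-ARv-03 replicates 1 or 2 or 0 h replicates 1 or 3 (up to 0.165), and for KCNQ1OT1 without KI-ARv-03 replicates 2 or 3 or 0 h replicate 2 (up to 0.0729), with limma's highest adjusted p in brackets. They ended too for CDC6 without any 1 of the 6 (up to 0.165), and for MNT without KI-ARv-03 replicates 2 or 3 or 0 h replicates 2 or 3 (up to 0.179). Medians were above 0 in NF-kB-activated genes (0.25, DMSO -0.10), G2 and mitosis genes (0.09, DMSO -0.16) and S phase genes (0.02, DMSO -0.07). The 3 tested markers of other cell types had a median of 1.21 (DMSO 1.24). Lists of messages known as long-lived had medians above 0 too. The 73 cytosolic ribosomal protein genes had a median of 0.25 (DMSO 0.38) with 0 called, the 20 glycolysis and housekeeping genes 0.41 (DMSO 0.39) with 0 called, and the 43 nuclear-encoded respiratory chain genes 0.50 (DMSO 0.49) with 3 higher and 0 lower, beside 0.481% called higher over all genes. Those 3 were NDUFA2, NDUFS5 and COX7A2, and COX7A2 went from 497, 405 and 313 to 811, 728 and 774 CPM (0.95 ± 0.24, limma adjusted p = 0.0249). These calls ended for COX7A2 without KI-ARv-03 replicates 1, 2 or 3 or 0 h replicates 2 or 3 (up to 0.128), for NDUFA2 without KI-ARv-03 replicates 2 or 3 or 0 h replicates 1, 2 or 3 (up to 0.172), and for NDUFS5 without any 1 of the 6 (up to 0.157), all limma adjusted p. None of the 3 was called with scaling by library size (limma adjusted p = 0.0822 for NDUFA2, 0.149 for NDUFS5 and 0.0727 for COX7A2) or with the deposited scaling (0.0946, 0.288 and 0.160). With scaling by library size the median of all genes moved by -0.15 and with the deposited scaling by -0.19, so these medians are relative to that shift.

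**Figure D3:**
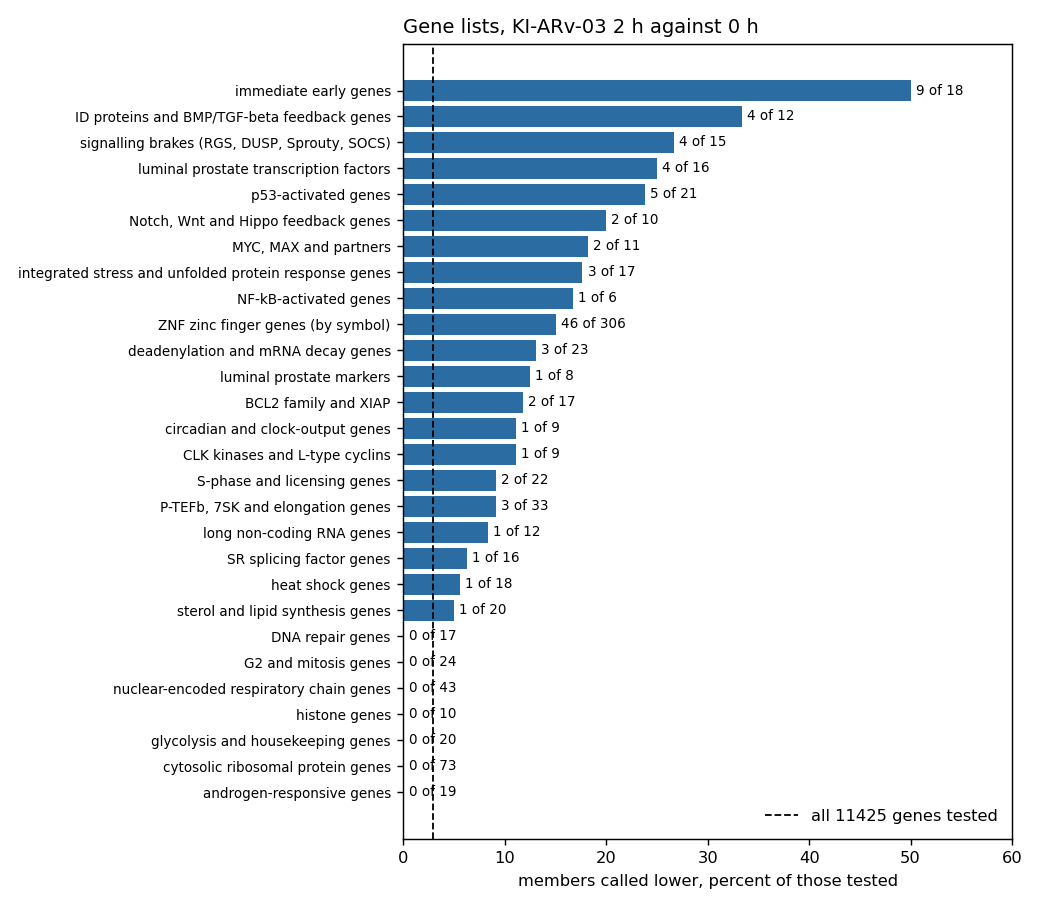
Share of the tested members of each gene list called lower with KI-ARv-03 at 2 h than at 0 h, in percent, with the count beside each bar and a dashed line at the 2.88% of all 11425 genes. Immediate early genes lead with 9 of 18, and 0 of 73 ribosomal protein genes were called.

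Zinc finger genes named ZNF, most of them DNA-binding repressors, formed the longest list and gave the most fallers by number. Of 306 tested, 46 were called lower and 0 higher, beside 2.88% lower over all genes tested. The median was -0.90 (DMSO -0.76), and 23 of the 306 were called lower with DMSO, beside 302 of all 11425 genes. The 46 ranged from -3.02 to -1.31. Most were low messages, such as ZNF764 (8.82, 10.6 and 7.01 CPM at 0 h and 0.457, 0 and 0.758 with KI-ARv-03), whereas ZNF503, a repressor of the NET family, went from 583, 589 and 570.1 to 96.9, 123 and 117 CPM (-2.37 ± 0.31, limma adjusted p = 8.66e-05), with 79.4, 104 and 126 in DMSO. Without 0 h replicate 3, 27 of the 306 were called lower.

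Features that the test did not use were then described. The fallers' conversion with DMSO at 8 h, a measure of how far labelled RNA had replaced older RNA, had a median of 21.4% in the 42 of 329 that had 20 reads or more in all 3 libraries there, beside 0.766% over 5288 genes tested. The other fallers had too few reads for a value there. The transcript with most exons had a median of 5 exons in 316 fallers beside 9 in 10970 genes, and 18.7% of fallers (59) had at most 2 exons beside 5.52% of all (605). The median gene span was 16831 bp beside 29829.5 bp. Without 0 h replicate 3, the 183 fallers gave 20.8% (25 genes) for conversion, 24.7% with at most 2 exons and 15285 bp. Leaving out the ZNF genes, 20.4% of the 270 other fallers with an exon value had at most 2 exons. Median levels at 0 h were near each other, 23.6 CPM in fallers and 24.7 in all. The 55 genes called higher had a median conversion of 0.402% with DMSO at 8 h (45 genes), 8 exons and a span of 9366 bp. These values are descriptions and were not tested.

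**Figure D4:**
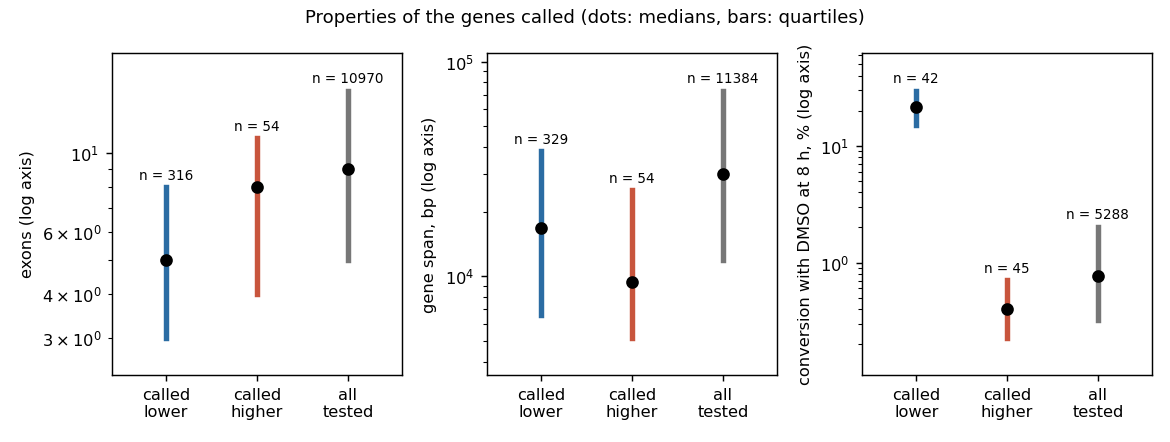
Medians (dots) and quartiles (bars) of exon number, gene span in bp and conversion with DMSO at 8 h in percent, on log axes, for genes called lower, genes called higher and all genes tested, with the number of genes that have a value. Genes called lower had a median of 5 exons and 21.4% conversion, beside 9 and 0.766% over all genes tested.

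The 55 genes called higher rose less and less evenly. Of the 10 named for the largest rises to at least 20 CPM, HHLA3 went from 7.30, 5.69 and 9.60 to 32.5, 59.0 and 49.3 CPM (2.47 ± 0.71, limma adjusted p = 0.0493), with 15.7, 8.13 and 40.9 in DMSO. SYP went from 20.4, 16.3 and 30.1 to 69.5, 141 and 111 CPM, with 67.0, 21.7 and 97.7 in DMSO. FKBP8, an anti-apoptotic immunophilin of mitochondria, went from 28.6, 25.6 and 19.5 to 52.8, 175 and 126, with 43.0, 26.7 and 113 in DMSO. In SYP and FKBP8, KI-ARv-03 replicate 1 lay well below replicates 2 and 3. In FKBP8, DMSO replicate 3 lay well above the other 2 with DMSO, whereas in SYP DMSO replicate 2 lay well below the other 2. The other 7 were TYK2, a kinase of cytokine receptors (17.6, 12 and 10.6 to 43.0, 55.3 and 39.0 CPM), SMPDL3B, the interferon-induced OAS3, CPNE1, EPN1, the mitochondrial creatine kinase CKMT1A, whose reads may be shared with its near-identical copy CKMT1B, and the pseudogene YBX3P1, with differences from 1.69 to 1.88. With DMSO these 7 stood 0.93 to 1.32 above 0 h. PKM, the glycolytic pyruvate kinase, had the layout of FKBP8 at higher levels but did not pass. It was at 567, 412 and 715 CPM at 0 h, 1217, 3886 and 3217 with KI-ARv-03 and 911, 589 and 3582 with DMSO. The part of these 2 h libraries in the rises was not tested. All 10 rises lost the call without KI-ARv-03 replicate 2 and without 0 h replicate 3, with the highest limma adjusted p for FKBP8 (0.268 without KI-ARv-03 replicate 2). H2BC12, a histone gene, was the 1 of 10 histone genes called higher (15.5, 15.9 and 11.9 to 29.7, 55.3 and 37.5 CPM), beside 0.481% called higher over all genes. Its call ended for H2BC12 without KI-ARv-03 replicates 2 or 3 or 0 h replicates 1, 2 or 3 (limma adjusted p up to 0.178).

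Conversion was compared in the same libraries. Its mean, weighted by the reads of each gene, was 0.409%, 0.339% and 0.289% in the 3 libraries at 0 h and 0.406%, 0.371% and 0.412% after 2 h with KI-ARv-03, so the groups overlapped. The means were 0.346% ± 0.0603 and 0.396% ± 0.0221 (SD, n = 3), a difference of 0.0507 percentage points (exact two-sided permutation p = 0.3, adjusted 0.3 over 2 comparisons). With DMSO the libraries were at 0.655%, 0.827% and 0.894%, all above those with the compound. The compound stood 0.396 percentage points lower, with an exact permutation p of 0.1 (adjusted 0.2), the smallest that 3 against 3 allows.

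Gene by gene, conversion was higher with KI-ARv-03 than at 0 h in 22 of 8762 genes tested (0.251%) and lower in 0 (limma on the arcsine scale, 451 higher and 47 lower at an unadjusted p under 0.05). Of the 22, 10 were also called lower in level, beside 119 of all 8762 genes tested for conversion. TXNIP, an inhibitor of thioredoxin, went from 10.6%, 9.25% and 7.44% to 22.8%, 23.3% and 23.9% (limma adjusted p = 9.34e-09), with 23.6%, 24.7% and 24.2% in DMSO. The conversion of TXNIP thus overlapped between the 2 h groups, while its level was 267, 208 and 209.7 CPM at 0 h, 116, 57.2 and 113 with KI-ARv-03 and 179.5, 238 and 226 with DMSO. That fall in level was called against 0 h (-1.31 ± 0.36, limma adjusted p = 0.0428), and ended as a call for TXNIP without KI-ARv-03 replicates 2 or 3 or 0 h replicates 1, 2 or 3 (up to 0.291). ID1 showed 3.75%, 3.66% and 2.07% at 0 h, 9.19%, 11.9% and 13.4% with KI-ARv-03 and 7.91%, 13.6% and 12.04% with DMSO (limma adjusted p = 0.00739 against 0 h). ID2 and ID3 rose by 8.20 and 7.28 percentage points, so the conversion of all 3 ID messages rose while their levels fell. KLF6 went from 10.2%, 8.11% and 7.86% to 24.4%, 18.4% and 24.7% with the compound, below the 32.7%, 35.9% and 34.9% with DMSO. KMT2E-AS1, an antisense RNA, ZNF3 and MIDN rose by 10.1, 6.89 and 6.27 percentage points. KLF6, MIDN, ZNF3 and SOX4 are the 4 of the 22 that were also called lower than DMSO, beside 0.820% of all genes tested against DMSO. Without 0 h replicate 3 the count was 6, and without KI-ARv-03 replicate 3 it was 5. Leaving out KI-ARv-03 replicate 2 gave 12, and leaving out 0 h replicates 1 and 2 gave 14 and 10. TXNIP and ID2 kept their calls in each of these, but on the log2 scale 0 genes were called, and TXNIP had a limma adjusted p of 0.130. With only the compared groups fitted, ID1, ID2, ID3 and KLF6 were not called (limma adjusted p = 0.112, 0.107, 0.112 and 0.112). The call ended for ID1 without KI-ARv-03 replicate 3 or 0 h replicate 3 (up to 0.115), for ID3 without KI-ARv-03 replicate 2 or 0 h replicate 3 (up to 0.0855), and for KLF6 without KI-ARv-03 replicate 3 (0.0561), with limma's highest adjusted p in brackets. It ended too for KMT2E-AS1 without KI-ARv-03 replicate 3 or 0 h replicate 3 (up to 0.137), for ZNF3 without KI-ARv-03 replicate 3 or 0 h replicates 2 or 3 (up to 0.263), for MIDN without KI-ARv-03 replicates 2 or 3 or 0 h replicates 1, 2 or 3 (up to 0.133), and for SOX4 without KI-ARv-03 replicates 1 or 3 or 0 h replicates 1, 2 or 3 (up to 0.263). The calls against DMSO ended for KLF6 without any 1 of the 6 libraries compared (up to 0.238), for MIDN without KI-ARv-03 replicates 1, 2 or 3 or DMSO replicates 2 or 3 (up to 0.150), and for ZNF3 without KI-ARv-03 replicates 1 or 2 or DMSO replicates 2 or 3 (up to 0.195), while SOX4 kept its own in these. With only the compared groups fitted, KLF6, MIDN, ZNF3 and SOX4 were not called lower than DMSO (limma adjusted p = 0.0715, 0.0651, 0.118 and 0.0651).

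Against DMSO at 2 h, conversion was lower with KI-ARv-03 in 67 of 8170 genes (0.820%) and higher in 0 (34 higher and 1064 lower at an unadjusted p under 0.05). The median of the 67 was 0.941% at 0 h, 1.39% with KI-ARv-03 and 6.54% with DMSO. RSRP1, a gene of an arginine and serine rich protein, was at 2.86%, 2.999% and 0.508% at 0 h, 4.51%, 3.51% and 7.81% with KI-ARv-03 and 22.4%, 20.9% and 36.1% with DMSO (limma adjusted p = 0.00201). ZBTB7A, a transcriptional repressor, was at 2.08%, 1.67% and 2.23%, 3.12%, 3.26% and 4.36% and 7.87%, 11.3% and 11.8% (adjusted p = 5.62e-04), and MAP2K7, a kinase that activates JNK, at 1.38%, 1.07% and 0.0330%, 1.40%, 1.43% and 1.11% and 5.67%, 8.11% and 10.7% (adjusted p = 0.00248). In RSRP1, ZBTB7A and MAP2K7 the libraries with KI-ARv-03 lay below all 3 with DMSO, which their choice by p makes likely. ONECUT2, a lineage factor of prostate cancer, POLE3, a subunit of DNA polymerase epsilon, NXPH4 and the antisense RNAs OTUD6B-AS1 and WAC-AS1 completed the 8 with the lowest p, with differences from DMSO of -3.87, -2.22, -4.50, -6.50 and -3.57 percentage points. The levels of these 8 were not called against 0 h, with 436, 418 and 518 CPM for POLE3 at 0 h and 321, 326 and 338 with KI-ARv-03. Of the 67, 6 were called lower than 0 h in level, beside 2.88% of all genes tested for level. The antisense RNAs can share reads with their partner genes, because the strand setting of the counting is not given in the sources used here. The count of 67 fell to 18 without DMSO replicate 3 and 34 without replicate 2. Leaving out KI-ARv-03 replicates 1, 2 and 3 in turn gave 29, 23 and 33, while these 8 kept their calls in every leave-out. With only the compared groups fitted, RSRP1, ONECUT2 and NXPH4 were not called (limma adjusted p = 0.0651, 0.0561 and 0.0723). On the log2 scale 0 genes were called against DMSO.

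**Figure D5:**
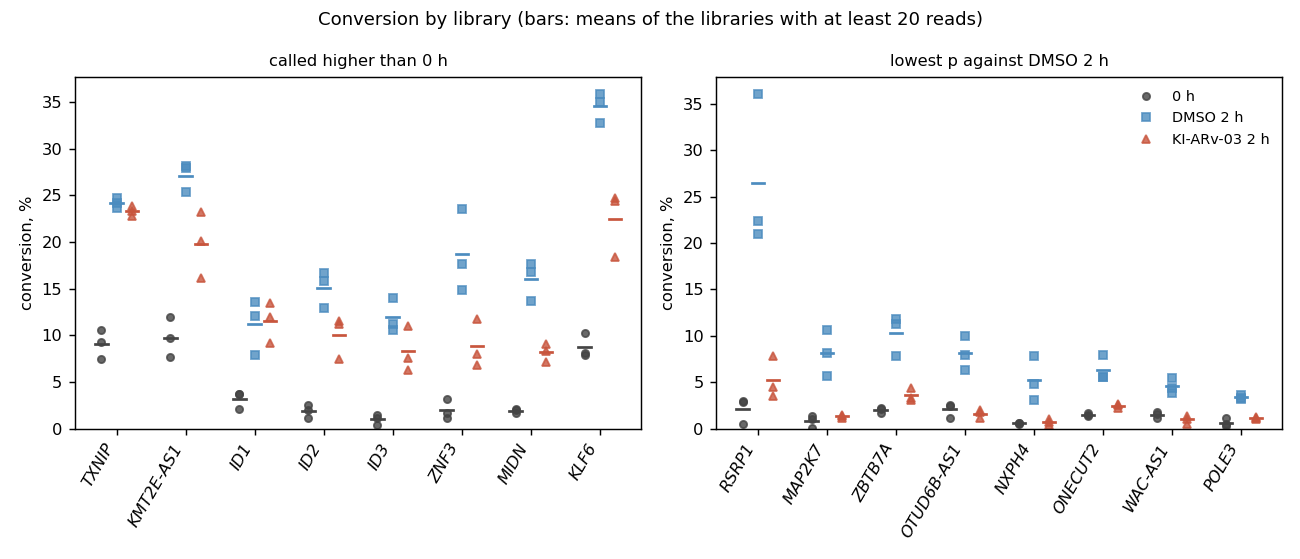
Conversion in percent, 1 point per library with at least 20 reads and bars at the means, for 0 h, DMSO at 2 h and KI-ARv-03 at 2 h. On the left, genes named for a rise above 0 h and KLF6, where TXNIP and ID1 overlap between the 2 h groups; on the right, the 8 genes with the lowest p against DMSO, where KI-ARv-03 stays below DMSO in all libraries.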

How the data were processed

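QuantSeq 3′ SLAM-seq libraries of 22Rv1 cells were sequenced, and 1 table with a level and a conversion value per transcript and library was deposited. Per the file headers the levels are CPM, but their sums differ between libraries, so they were treated as a normalized signal whose scaling the authors chose, and 100% of values above 0 were whole multiples of 1 read within 0.05. Conversion is a fraction deposited by the authors, printed here as a percentage, and it is not a share of the reads counted. The genome build was hg19, per the submitters' processing notes, and the aligner and caller were not given in the sources used here. ERCC spike-ins were added per the labels' protocols, and 0 rows carry an ERCC name.

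Of 85618 rows, 50925 RefSeq identifiers were distinct and 99.2% matched a symbol; 0.478% of reads had no name and were left out. Recovered reads were filtered with filterByExpr (edgeR 4.0.16, minimum 10), and log2(TMM-rescaled CPM + 1) was fitted with limma 3.58.1 with trended variances over all 30 libraries in 10 groups (R 4.3.3). limma was used because the table holds normalized values. Conversion, on the arcsine square root scale, was fitted likewise where both groups had at least 2 values behind 20 reads or more. The median 95% half-width of a log2 difference was 0.86, and intervals cover the spread between libraries only. Mean conversion was compared with exact permutation tests. The scripts were tested on simulated data. edgeR and DESeq2 1.42.0 on the recovered reads, other scalings, pseudocounts, filters, a replicate block and leaving out each library were alternatives, with 1 more, leaving out the 3 libraries that stand apart (0 h replicate 3, KI-ARv-03 replicate 2 at 8 h and KB742 replicate 2 at 2 h), added after seeing the data.

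The genes and 29 gene lists were chosen with earlier results of these data known. Named were the 20 largest falls and 10 largest rises with groups that did not overlap and at least 20 CPM, the 8 largest rises in conversion among called genes with a mean of at least 20 CPM in both groups, every gene called for level and the 8 lowest p for conversion against DMSO, up to 3 called members and the most abundant 1 of each list, and check genes. Of the genes these rules name, 4 are not reported here. Replicate numbers did not pair the libraries. Of the labels, the treatment text names DMSO for every library, so titles were followed.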

Additional observations from a re-analysis of the deposited data

Results flagged for a closer look

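The change over 2 h differed between KI-ARv-03 and DMSO for 3 levels by a test of the difference itself, with log2 differences of -2.11 for KLF6, -2.42 for METTL18 and -2.86 for FGF18. For conversion it differed by the same kind of test for 67 genes, of which the 8 with the lowest p are given: RSRP1 by -21.19 percentage points, MAP2K7 by -6.83, ZBTB7A by -6.74, OTUD6B-AS1 by -6.50, NXPH4 by -4.50, ONECUT2 by -3.87, WAC-AS1 by -3.57 and POLE3 by -2.22. All of these were lower with the compound, in all 3 libraries against all 3 with DMSO. They were chosen by their p in this same comparison, so that layout adds no support.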

How the results depend on the processing

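For levels against 0 h, the 384 calls (329 lower and 55 higher) became 853 with the deposited scaling (794 lower), 542 lower and 33 higher with scaling by library size, and 31 higher with DESeq2 size factors. They became 116 (97 lower and 19 higher) with a pseudocount of 0.25 and 856 (743 and 113) with 5. edgeR gave 35 higher, DESeq2 795 (646 lower and 149 higher), and a fit of the compared groups alone 597 (232 higher). Leaving out 1 library gave 103 to 326 calls, 101 to 272 lower and 2 to 54 higher. The share of calls that were higher was 14.3%, and 5.74%, 6.92% and 7.35% with scaling by library size, the deposited scaling and DESeq2 size factors. Against DMSO, the 3 level calls became 6 without a filter (1 higher), 7 with DESeq2, 7 without the 3 libraries that stand apart and 0 with the compared groups alone, and 0 to 3 when 1 library was left out. For conversion against 0 h, the 22 calls became 0 on the log2 scale, 11 without the 3 libraries that stand apart and 4 with the compared groups alone, and 5 to 18 when 1 library was left out. Against DMSO, the 67 became 103 with at least 50 reads, 40 with at least 10, 0 on the log2 scale, 26 without the variance trend, 109 without the 3 libraries that stand apart and 32 with the compared groups alone, and 18 to 77 when 1 library was left out. Deposited values are smaller per read, so the pseudocount of 1 weighs more with the deposited scaling. The cause of these moves was not tested. Some differences that were not called changed sign: KMT2E-AS1 from -0.08 to 0.249 without the 3 libraries that stand apart, with -0.358 to 0.249 over leave-outs (above 0 without KI-ARv-03 replicates 1 or 2 or 0 h replicate 3), and ONECUT2 from -0.09 to 0.0636 without 0 h replicate 2 (leave-outs -0.349 to 0.0636). Replicate numbers gave correlations of deviations of 0.116, -0.240 and 0.0685 between KI-ARv-03 and 0 h, so they name samples only; with a replicate block there were 331 level calls (296 lower and 35 higher), 3 against DMSO, and 24 and 71 for conversion. The mean conversion difference kept its sign throughout, at 0.0222 to 0.0823 percentage points when 1 library was left out.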
